A study of Mus musculus with 4 samples.

Results

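The genes described here encode the mitochondrial respiratory chain and ATP synthase, the machinery of oxidative phosphorylation. They were taken by gene name, as complex I subunits and the assembly factors that share their name stem (Nduf), complex II subunits (Sdha to Sdhd), complex III subunits (Uqcr genes and Cyc1), complex IV subunits (Cox4 to Cox8), ATP synthase subunits (Atp5) and the protein-coding genes of mitochondrial DNA (mt-). Of 107 names that matched among 31053 genes listed, 100 had at least 100 unique molecular identifiers (UMIs, molecules counted once each) over the 4 libraries, and these 100 are the members: 87 nuclear and 13 mitochondrially encoded. The other 7 names were Cox6a2 with 84 UMIs, Cox4i2 with 29, a second Atp5o identifier with 4, Ndufa4l2 with 1, and Cox7b2, Cox8b and Cox8c with 0. The members nearest above the limit were Cox7a1 with 348 UMIs, Cox6b2 with 403 and Atp5s with 1064. All 100 members passed the filter on low counts and were tested.

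The data are single-cell 3′ RNA profiles of donor T cells from a mouse model of graft-versus-host disease, where transferred T cells attack the tissues of a mismatched host. BALB/c recipients were irradiated with 900 cGy and received CD45.1+ CD45.2+ C57BL/6 bone marrow depleted of T cells, together with spleen regulatory T (Treg) cells sorted as CD4+ Foxp3-GFP+ CD25hi from CD45.2+ CD45.1- donors on the C57BL/6 background. These Treg donors were CD226+/+ TIGIT+/+ (wild-type library), CD226-/- TIGIT+/+ (CD226-knockout library), CD226+/+ TIGIT-/- (TIGIT-knockout library) or CD226-/- TIGIT-/- (double-knockout library). Conventional CD4+ and CD8+ T cells of wild-type CD45.2- CD45.1+ mice followed 2 days later, and live donor T cells, positive for H-2Kb and TCRb, were taken by sorting from recipient spleens 8 days after disease induction. The series record gives 3 as the number pooled per library without naming the unit, and each genotype has 1 library, so nothing was tested between genotypes. CD226 is an activating and TIGIT an inhibitory receptor for shared ligands on T cells, and the conventional cells were wild type at both in every library. The sequencing lane in the labels follows TIGIT status, so TIGIT contrasts cannot be told apart from lane.

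Antibodies with DNA barcodes against CD45.1 and CD45.2 gave each cell's origin. Treg-origin cells had a log2 CD45.1/CD45.2 ratio of antibody counts below -0.6, and conventional cells one above 2.2. Conventional cells with more Cd4 than Cd8a and Cd8b1 UMIs were called CD4, and those with fewer CD8. The Treg-origin class held 367, 332, 462 and 376 cells in the wild-type, CD226-knockout, TIGIT-knockout and finally the double-knockout library. Conventional CD4 cells numbered 2750, 3098, 3100 and 2813 in the same order, and conventional CD8 cells 2098, 2600, 2902 and 3415. All values below are in that order of libraries. Each class of each library was summed and is given as CPM, its counts scaled to a class total of 1000000 UMIs.

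Electrons enter the chain through complex I, which oxidises NADH, or complex II, which oxidises succinate, and pass through complex III and cytochrome c to complex IV, which reduces oxygen. Complexes I, III and IV pump protons across the inner mitochondrial membrane, and ATP synthase uses the gradient to make ATP. Mitochondrial DNA encodes a few core subunits of every complex except complex II, so the chain is built from transcripts of both genomes. Treg cells are known to rely more on oxidative metabolism and activated conventional T cells more on glycolysis, and proliferating T cells make new mitochondria.

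Promoters of respiratory genes are known for binding sites of NRF1, of ETS factors such as GABP, and of YY1. RefSeq promoter windows (GRCm38.p6, 300 bases spanning the start) matched 74 of the 87 nuclear members. They were searched on both strands for the letters GCGCNTGCGC (NRF1), CCGGAAG (ETS) and AAGATGGCG (YY1), and matches of different motifs could overlap. For each RefSeq gene the first listed window was used, whether or not the gene was detected here, which gave 27025 windows in all. The NRF1 letters stood in 18 of 74 member windows (24.3%), against 4.78% of all 27025. For the ETS letters the count was 17 (23.0%), against 9.12% of all windows, and for the YY1 letters 7 (9.46%), against 1.49%. At least 1 of the 3 was present in 36 member windows (48.6%), against 14.0% of all windows. Median GC content was 58.8% in member windows and 52.7% in all windows. A match is a description of letters in a window and not a measured binding site. The next sequences show 3 members that fell in Treg-origin cells (Ndufa5, Ndufaf4 and Ndufb6) and 1 that rose (Ndufa6), 5′ to 3′ on the gene's strand, with the NRF1 letters, or in Ndufb6 the ETS letters, in capitals.
Ndufa5 promoter, chr6:24527477-24527776 (-): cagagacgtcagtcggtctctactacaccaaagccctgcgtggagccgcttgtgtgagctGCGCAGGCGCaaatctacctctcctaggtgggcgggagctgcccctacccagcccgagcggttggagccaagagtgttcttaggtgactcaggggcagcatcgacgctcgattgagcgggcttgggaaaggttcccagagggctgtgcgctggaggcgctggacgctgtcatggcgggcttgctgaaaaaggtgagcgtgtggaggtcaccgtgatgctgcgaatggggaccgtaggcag
Ndufaf4 promoter, chr4:24897833-24898132 (+): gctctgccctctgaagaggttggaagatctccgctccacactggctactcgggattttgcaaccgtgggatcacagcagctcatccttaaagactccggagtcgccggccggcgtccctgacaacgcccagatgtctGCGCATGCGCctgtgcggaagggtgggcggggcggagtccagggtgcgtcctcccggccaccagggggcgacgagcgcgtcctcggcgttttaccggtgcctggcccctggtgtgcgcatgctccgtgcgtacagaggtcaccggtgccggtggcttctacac
Ndufa6 promoter, chr15:82354242-82354541 (-): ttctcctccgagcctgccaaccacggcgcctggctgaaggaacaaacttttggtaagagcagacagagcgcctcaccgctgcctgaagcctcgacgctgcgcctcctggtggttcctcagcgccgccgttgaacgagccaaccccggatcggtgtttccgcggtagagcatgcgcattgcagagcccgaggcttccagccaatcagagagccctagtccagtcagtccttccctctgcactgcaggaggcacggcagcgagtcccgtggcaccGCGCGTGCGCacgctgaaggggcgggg
Ndufb6 promoter, chr4:40279372-40279671 (-): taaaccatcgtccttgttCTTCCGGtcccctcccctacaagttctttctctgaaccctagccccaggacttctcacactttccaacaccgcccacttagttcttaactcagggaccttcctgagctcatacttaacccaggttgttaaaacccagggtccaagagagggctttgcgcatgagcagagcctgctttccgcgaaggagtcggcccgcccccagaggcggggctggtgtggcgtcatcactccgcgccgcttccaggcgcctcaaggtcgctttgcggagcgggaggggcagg
The NRF1 letters were therefore present in promoters of members of both directions. Among the 43 windows of members lower in Treg-origin than in conventional CD4 cells, 16 held the NRF1 letters, 8 the ETS letters and 4 the YY1 letters. Among the 9 windows of higher members the counts were 1, 1 and 0, and among the 22 windows of members that did not pass the test they were 1, 8 and 3.

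By Foxp3 and Ikzf2 the classes matched their labels, but the Treg-origin class also held CD8 transcripts. Cd8a and Cd8b1 summed to 36.4, 29.8, 28.2 and 21.5 CPM there, and to 6.02 to 7.63 CPM in conventional CD4 cells. More Cd8 than Cd4 UMIs were found in 2.72% to 5.59% of Treg-origin cells, and more Cd4 in 43.9% to 50.4%. Foxp3, the Treg transcription factor, stood at 54.6, 64.1, 47.3 and 58.1 CPM in Treg-origin cells, at 1.18 to 2.26 CPM in conventional CD4 cells and at 1.57 to 7.11 CPM in conventional CD8 cells. A UMI of Foxp3 or Ikzf2 was found in 73.4% to 78.3% of Treg-origin cells, at median depths of 3922 to 5372 UMIs per cell. The same was found in 15.3% to 23.6% of conventional CD4 cells (median 7040 to 9013 UMIs) and in 14.2% to 18.7% of conventional CD8 cells (median 8887 to 11901 UMIs). Class totals were 1747477 to 2305761 UMIs for Treg-origin cells and 25441326 to 39929802 for the conventional classes. Cd226 stood at 31.2, 4.01, 32.5 and 4.39 CPM in Treg-origin cells, low in both libraries with CD226-/- Treg cells, and at 64.0 to 72.5 CPM in conventional CD4 cells. Tigit in Treg-origin cells, at 9.11, 5.15, 8.60 and 5.86 CPM, did not separate the TIGIT genotypes, and 3′ counts do not show whether an upstream exon is deleted. Some Treg-origin barcodes carried transcripts of other lineages. The summed neutrophil markers stood at 1795, 5.15, 1729 and 3.90 CPM, the erythroid markers at 43.8, 997, 16.2 and 22.4 CPM, and the plasma cell markers at 0, 235, 0.955 and 0 CPM. The macrophage markers stood at 102, 54.4, 153 and 25.4 CPM, against 23.5 to 34.4 CPM in conventional CD4 cells. The B cell markers stood at 19.95, 29.8, 22.9 and 11.2 CPM, against 3.14 to 5.12 CPM. Of the natural killer cell genes, Klrb1c stood at 0.434, 0, 0.955 and 0.976 CPM, and Ncr1 and Klra8 at 0 in all 4 Treg-origin sums. Of 24250 distinct barcodes in the classes, 63 occurred in more than 1 library.

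Summed over cells, Treg-origin cells devoted slightly less of their RNA to the nuclear members, and more to the mitochondrially encoded ones, than conventional cells of the same library. The nuclear members made up 2.57, 2.61, 2.64 and 2.60% of UMIs in Treg-origin cells, 2.71, 2.73, 2.77 and 2.72% in conventional CD4 cells and 2.78, 2.81, 2.84 and 2.81% in conventional CD8 cells. The 3 classes did not overlap, and their order was the same in each of the 4 libraries. The log2 ratio of shares was -0.069 (SD 0.0046, n = 4 libraries) for Treg-origin over conventional CD4 cells and 0.040 (SD 0.0045) for conventional CD8 over CD4 cells. Both ratios use the same CD4 sums. An exact sign-flip permutation test over the 4 libraries gave p = 0.13 for each (two-sided), the smallest this number of libraries allows.

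The mitochondrially encoded members ran in the opposite order. Their share was 4.23, 3.94, 3.99 and 4.07% in Treg-origin cells, 3.76, 3.78, 3.79 and 3.93% in conventional CD4 cells and 3.51, 3.57, 3.50 and 3.69% in conventional CD8 cells. The Treg-origin range lay above both conventional ranges, by a narrow margin over CD4 cells. The log2 ratio was 0.088 (SD 0.055) for Treg-origin over CD4 cells, with library values of 0.169, 0.059, 0.076 and 0.050, so the wild-type library had the highest. With antibody limits of -1.5 and 3 it was -0.019, and in cells thinned to 2000 UMIs -0.003, so its sign depended on which cells were summed. The median share per cell hardly separated the 2 classes outside the wild-type library, at 4.12, 3.88, 3.85 and 3.89% in Treg-origin and 3.76, 3.81, 3.84 and 3.90% in CD4 cells. For the nuclear members it was 2.51 to 2.58% in Treg-origin and 2.71 to 2.77% in CD4 cells, without overlap. The log2 ratio of the sums was -0.097 (SD 0.013) for CD8 over CD4 cells, and the exact two-sided sign-flip permutation p was again 0.13 for each. The ratio of mitochondrially encoded to nuclear UMIs was 1.51 to 1.64 in Treg-origin, 1.37 to 1.44 in CD4 and 1.23 to 1.31 in CD8 cells. In a class sum, fewer cells with a transcript and fewer copies per cell cannot be told apart. Without barcodes that held 3 or more other-lineage UMIs, the Treg-origin over CD4 ratio was -0.065 for the nuclear and 0.088 for the mitochondrially encoded sum.

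**Figure D1:**
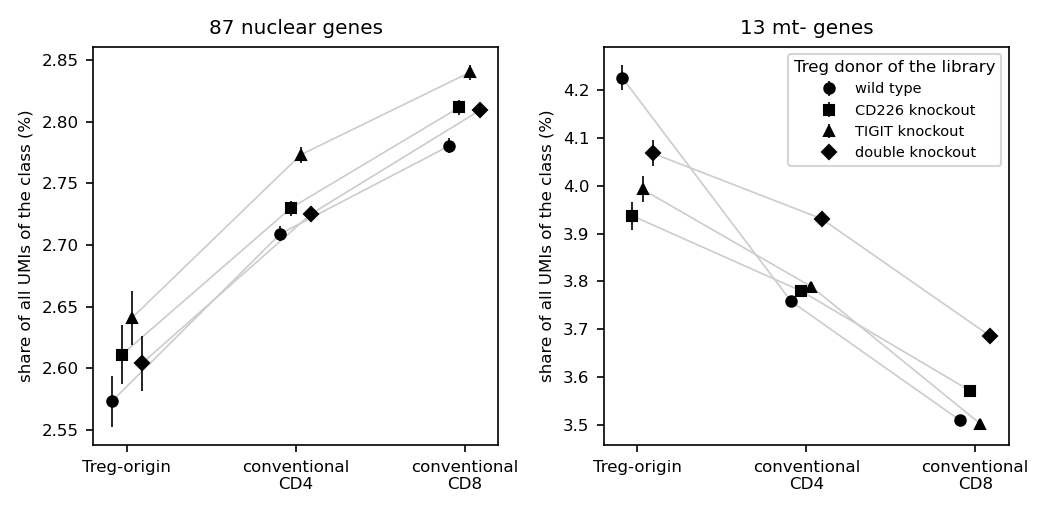
Share of all UMIs of a class (percent, vertical axis) taken by the 87 nuclear members (left) and the 13 mitochondrially encoded members (right), for Treg-origin, conventional CD4 and conventional CD8 cells of each of the 4 libraries; bars give the 95% counting interval. The nuclear share rises from Treg-origin (2.57 to 2.64%) to CD8 cells (2.78 to 2.84%), and the mitochondrially encoded share falls from 3.94 to 4.23% to 3.50 to 3.69%.

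Gene by gene, 53 of the 87 nuclear members were lower and 10 higher in Treg-origin than in conventional CD4 cells, and 24 did not pass the test (edgeR quasi-likelihood test, Benjamini-Hochberg adjustment over all genes, adjusted p at most 0.05, 12 class sums with library as a block). Of all 11814 genes tested, 23.7% were lower and 20.2% higher. Among genes averaging 50 CPM or more, 48.7% were lower and 23.5% higher, against 63.6% (49) and 11.7% (9) of the 77 nuclear members at that level. The median log2 fold over the 87 was -0.13, and over all genes it was -0.02. Without composition scaling (TMM) the split was 43 lower and 13 higher with a median of -0.08, and with DESeq2 it was 47 and 12. TMM moved the median of all genes from 0.03 to -0.02, so fitted folds lie slightly below the ratios of the CPM values given beside them. In 38 of the 87 the CPM ranges of the 2 classes did not overlap, against 38.1% of all genes.

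Lower calls occurred in every complex, beside 23.7% of all genes lower and 20.2% higher. Among genes averaging 50 CPM or more these shares were 48.7% and 23.5%. By complex, the lower calls took in 12 of 16 ATP synthase members, 5 of 7 complex I core subunits, 18 of 29 complex I accessory subunits, 3 of 8 complex I assembly factors, 3 of 4 complex II subunits, 6 of 9 complex III members and 6 of 14 complex IV members. The higher calls were 6 complex I accessory subunits, 3 complex IV members and 1 complex III member, with none in ATP synthase, complex II, the complex I core or the assembly factors. As sums, ATP synthase stood at a log2 ratio of -0.123 (SD 0.0054) and the assembly factors at -0.170 (SD 0.034), both lower in 4 of 4 libraries. Complex III at -0.021 (SD 0.018) and complex IV at -0.027 (SD 0.025) were each higher in 1 of 4 libraries.

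**Figure D2:**
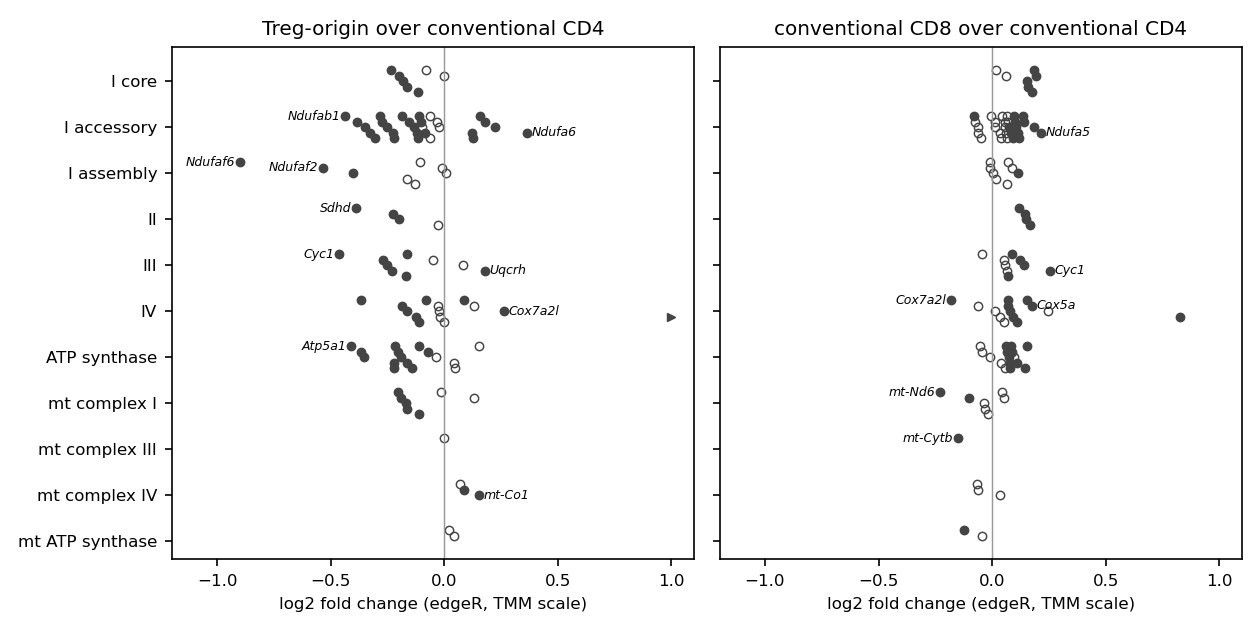
Log2 fold of each member, nuclear and mitochondrially encoded, grouped by complex, for Treg-origin over conventional CD4 cells and for conventional CD8 over CD4 cells; filled points have an adjusted p of at most 0.05, and the arrow marks Cox6b2 at 1.11. Among nuclear members, filled points lie mostly left of 0 in the first panel (53 of 63) and right of 0 in the second (45 of 47).

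Complex I, the NADH dehydrogenase, held lower and higher members. Ndufab1, the mitochondrial acyl carrier protein (chr7:122085403-122101886 (-), GRCm38 gene body), stood at 174, 165, 184 and 179.6 CPM in Treg-origin cells and at 227, 223, 250.0 and 219 CPM in CD4 cells. The groups did not overlap, and the log2 fold was -0.44 (SE 0.041, adjusted p = 2.6e-07). Ndufa6, an accessory subunit that binds the acyl carrier protein (chr15:82350140-82354322 (-)), stood at 189, 235, 207 and 205 CPM in Treg-origin cells and at 146, 163, 167 and 151 CPM in CD4 cells. Here every Treg-origin value lay above every CD4 value, with a log2 fold of 0.36 (SE 0.041, adjusted p = 2e-06). Accessory subunits of the membrane arm, among them Ndufb6 (-0.38), Ndufc2 (-0.31) and Ndufb8 (-0.28), fell, as did Ndufa5 (-0.35) and Ndufa12 (-0.33) of the matrix arm. Besides Ndufa6, the accessory subunits Ndufa1 (0.22), Ndufv3 (0.18), Ndufa13 (0.16), Ndufa3 (0.12) and Ndufa7 (0.12) rose. Ndufa3 lost its call without the TIGIT-knockout library (0.10) or without the double-knockout library (0.13). Ndufb7, the accessory subunit with the most UMIs, at 488 to 525 CPM in Treg-origin and 503 to 525 CPM in CD4 cells, had a log2 fold of -0.08 that did not pass when any 1 library was left out.

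The core subunits, which carry the flavin and the iron-sulfur clusters, had log2 folds from -0.24 to 0.00, with a median of -0.16 against -0.12 for the accessory subunits. Ndufs1 (-0.24), Ndufs8 (-0.20) and Ndufs7 (-0.16) fell, Ndufs1 losing its call without the wild-type (-0.20), the TIGIT-knockout (-0.20) or the double-knockout library (-0.23). Ndufv2 had the most UMIs of the core and stood at 226, 225, 209.7 and 233 CPM in Treg-origin and 233, 242, 227 and 235 CPM in CD4 cells, in overlapping ranges. Its log2 fold of -0.12 (SE 0.034, adjusted p = 0.01) did not pass without the CD226-knockout library (-0.09) or without the TIGIT-knockout library (-0.09). Ndufs3 at 0.00 and Ndufv1 at -0.08 did not pass the test. Among the assembly factors, which build complex I without staying in it, Ndufaf6 ranged over 4.88 to 12.6 CPM in Treg-origin cells (75 UMIs in all) and 15.1 to 18.5 CPM in CD4 cells, and its log2 fold was -0.90 (SE 0.16, adjusted p = 0.00025). Ndufaf2, at 29.2 to 31.2 against 41.3 to 43.0 CPM, also fell, by 0.53 on the log2 scale (SE 0.073, adjusted p = 1.6e-05). Ndufaf8, the assembly factor with the most UMIs, at 62.5, 67.5, 74.98 and 70.3 against 68.1 to 75.5 CPM, did not pass the test (-0.10). The call of Ndufaf4 (-0.40) was lost without the TIGIT-knockout library (-0.26).

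Complex II, succinate dehydrogenase, is the one complex with no mitochondrially encoded subunit. Sdhd, a membrane anchor, stood at 110.2, 91.0, 84.1 and 117 CPM in Treg-origin and 129.6, 129, 116 and 135 CPM in CD4 cells. The highest Treg-origin value reached the CD4 range, and the log2 fold was -0.39 (SE 0.057, adjusted p = 3.3e-05). The other anchor, Sdhc (-0.23), and the flavoprotein Sdha (-0.20) also fell. Sdhc lost its call without the CD226-knockout library (-0.19), and Sdha without the wild-type (-0.18), the CD226-knockout (-0.17) or the double-knockout library (-0.15). The iron-sulfur subunit Sdhb, at 244 to 252 CPM in Treg-origin and 237 to 248 CPM in CD4 cells, did not pass the test (-0.03).

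In complex III, Cyc1 encodes cytochrome c1, which hands electrons to cytochrome c (chr15:76343523-76346260 (+)). It stood at 141, 132, 126 and 137 CPM in Treg-origin cells and 185, 172, 187 and 171 CPM in CD4 cells, without overlap, a log2 fold of -0.47 (SE 0.045, adjusted p = 4.1e-07). The Rieske iron-sulfur protein gene Uqcrfs1 (-0.27) and the core protein genes Uqcrc1 (-0.25) and Uqcrc2 (-0.16) fell too. Uqcrh, the hinge protein that contacts cytochrome c1, rose: it stood at 684, 769, 725 and 707 CPM in Treg-origin and 579, 632, 626 and 630.1 CPM in CD4 cells, with a log2 fold of 0.18 (SE 0.027, adjusted p = 5.5e-05).

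Complex IV, cytochrome c oxidase, was divided. Cox5a, a subunit next to the catalytic core, stood at 778, 745, 797 and 796 CPM in Treg-origin and 979, 949.7, 1019.8 and 944 CPM in CD4 cells, without overlap. Its log2 fold was -0.37 (SE 0.028, adjusted p = 1.9e-08). Cox7a2l has been described as joining complexes III and IV in supercomplexes, which were not measured here. It stood at 387, 466, 396 and 409 CPM in Treg-origin and 325, 361, 307 and 345 CPM in CD4 cells. These ranges did not overlap either but were higher in Treg-origin cells, with a log2 fold of 0.26 (SE 0.03, adjusted p = 2.4e-06). Cox6a1 (-0.19), Ndufa4 (-0.16, a subunit first assigned to complex I) and Cox5b (-0.12) fell, and Cox6c (0.08) rose, a call lost without the CD226-knockout library (0.06). Cox7a2 (-0.08) fell too, but lost its call without the wild-type (-0.06), the TIGIT-knockout (-0.07) or the double-knockout library (-0.06). The abundant Cox4i1, at 1103 to 1201 CPM in Treg-origin and 1112 to 1148 CPM in CD4 cells, and Cox8a did not pass the test. Cox6b2, the testis-type isoform of Cox6b1, rested on 18 UMIs in Treg-origin cells, at 1.91 to 2.44 CPM against 0.854 to 1.14 CPM in CD4 cells. Its log2 fold of 1.11 (SE 0.32, adjusted p = 0.016) did not pass without the wild-type library.

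ATP synthase had no higher call. Atp5a1 and Atp5b encode the alpha and beta subunits of the catalytic head. Atp5a1 stood at 484, 437, 475 and 444 CPM in Treg-origin and 599, 573, 616 and 577 CPM in CD4 cells, a log2 fold of -0.41 (SE 0.028, adjusted p = 7.5e-09). Atp5b stood at 754, 697, 708 and 677 CPM in Treg-origin and 919.7, 862, 898 and 829 CPM in CD4 cells, a log2 fold of -0.36 (SE 0.026, adjusted p = 1.7e-08). For both, every Treg-origin value lay below every CD4 value. The paralogs Atp5g1 (-0.37), Atp5g2 (-0.19) and Atp5g3 (-0.22), which encode the same mature c subunit of the membrane ring, fell together. The smaller subunits Atp5d (-0.04), Atp5l (0.04) and Atp5e (0.05) did not pass the test, and neither did Atp5s (0.15, 28 UMIs in Treg-origin cells), a coupling factor outside the enzyme's core.

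Conventional CD8 cells carried slightly more of the nuclear transcripts than conventional CD4 cells. Of the 87 nuclear members, 45 were higher and 2 lower in CD8 cells, where 21.1% of all genes were higher and 18.1% lower. Among genes of at least 50 CPM, 33.6% were higher, against 54.5% (42) of the 77 nuclear members at that level. The median log2 fold over the 87 was 0.07, and over all genes 0.01. The ranges did not overlap in 23 members, against 30.0% of all genes. The count depended on the libraries, the cells and the scaling: 24 members passed without the wild-type library and 25 without the double-knockout library, and 26 in cells of at most 5% mitochondrial UMIs. The split was 28 higher and 10 lower without TMM, 36 and 7 with mt- genes left out of the scaling, 44 and 10 in a fit on these 2 classes alone, and 20 and 1 without the library as a block. All 4 complex II subunits rose, as did 5 of 7 core subunits of complex I, 10 of 16 ATP synthase members and 8 of 14 complex IV members.

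The effects in CD8 cells were small. Cyc1 stood at 222, 197, 216 and 199.6 CPM in CD8 cells, above every CD4 value, with a log2 fold of 0.25 (SE 0.031, adjusted p = 8.9e-06). Ndufa5, which fell in Treg-origin cells, stood at 119, 111, 121 and 117 CPM in CD8 and 101, 98.7, 109 and 102 CPM in CD4 cells, a log2 fold of 0.22 (SE 0.038, adjusted p = 0.00031). These 2 genes and Cox5a (0.18) ranked from Treg-origin through CD4 to CD8 cells without overlap. In cells without a UMI of 7 cell cycle genes Cox5a (0.28) passed, and Cyc1 (0.07) and Ndufa5 (0.13) did not. The complex I core subunits Ndufs3 (0.19), Ndufs7 (0.19) and Ndufv1 (0.18), the acyl carrier gene Ndufab1 (0.19) and Sdhb (0.17) also rose over all cells. In cells without a cycle UMI Sdhb (0.31) passed, while Ndufs3 (0.19), Ndufs7 (0.08), Ndufv1 (0.16), Ndufab1 (0.08), Sdha (0.0009), Sdhc (-0.013), Sdhd (0.24) and both lower members named next did not. Sdha (0.12) did not pass without the wild-type (0.08) or the double-knockout library (0.09), Sdhc (0.15) without the double-knockout library (0.10), and Sdhd (0.14) without the wild-type library (0.10). Cox7a1, the muscle-type isoform, had the largest fold, 0.83 (SE 0.22, adjusted p = 0.0079), from 171 UMIs in CD8 and 82 in CD4 cells. The 2 lower members were Cox7a2l, at 281, 311, 271 and 291 CPM in CD8 cells (-0.18), and Ndufa3 (-0.08), whose call was lost without the wild-type (-0.08), the TIGIT-knockout (-0.08) or the double-knockout library (-0.10).

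Treg-origin and conventional CD8 cells stood furthest apart. Of the 87 nuclear members, 65 were lower and 12 higher in Treg-origin than in CD8 cells, beside 28.8% lower and 25.1% higher (53.9% in all) of all genes. Among genes of at least 50 CPM 52.9% were lower and 26.6% higher, against 60 (77.9%) and 11 (14.3%) of the 77 members there. The median log2 fold was -0.22, and over all genes -0.03. In 56 of the 87 the ranges did not overlap, against 46.0% of all genes. All 7 core subunits of complex I, all 4 of complex II, 13 of 16 ATP synthase members and 9 of 14 complex IV members were lower. Cyc1 had a log2 fold of -0.72 (SE 0.045, adjusted p = 1.1e-09) and Ndufab1 one of -0.62 (SE 0.041, adjusted p = 1.8e-09). Cox7a2l (0.44), Ndufa6 (0.41) and Ndufa1 (0.30) were higher in Treg-origin cells.

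The 13 mitochondrially encoded members did not move as a block. Against conventional CD4 cells, 2 were higher and 5 lower in Treg-origin cells, beside the 20.2% and 23.7% of all genes. Of the 12 averaging 50 CPM or more, 2 (16.7%) were higher and 5 (41.7%) lower, against 23.5% and 48.7% of genes at that level. Over all 13 the split was 4 and 4 without TMM and 4 higher and 2 lower in a fit on these 2 classes alone. With antibody limits of -1.5 and 3 it was 1 higher and 7 lower. The median of the 13 was -0.00 and became 0.05 without TMM, and the ranges did not overlap in 3 of them, against 38.1% of all genes. Both higher members encode core subunits of complex IV. mt-Co1 (chrM:5328-6872 (+)) stood at 5605, 5609, 5153 and 5188 CPM in Treg-origin and 4734, 4817, 4635 and 4587 CPM in CD4 cells, without overlap, a log2 fold of 0.15 (SE 0.027, adjusted p = 0.00023). mt-Co3, at 8526, 8133, 8278 and 8273 against 7319.6, 7637, 7546 and 7764 CPM, had a log2 fold of 0.09 (SE 0.028, adjusted p = 0.02), and its call was lost without the wild-type library (0.06) and its sign turned with antibody limits of -1.5 and 3 (-0.0069). The third of the set, mt-Co2, did not pass the test (0.07). As a sum, the complex IV genes of mitochondrial DNA stood at 0.145 (SD 0.050), higher in 4 of 4 libraries.

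All 5 lower members encode complex I subunits. mt-Nd1 stood at 1887, 1668, 1884 and 2004 CPM in Treg-origin and 2040.3, 1959.6, 2069 and 2148 CPM in CD4 cells, in overlapping ranges, with a log2 fold of -0.19 (SE 0.026, adjusted p = 1.7e-05). mt-Nd5 (-0.17) and mt-Nd3 (-0.16) also fell. mt-Nd4l (-0.20) lost its call without the double-knockout library (-0.14), and mt-Nd2 (-0.11) without the CD226-knockout (-0.08) or the double-knockout library (-0.09). mt-Nd4l overlaps mt-Nd4, and mt-Atp8 overlaps mt-Atp6, so counts within each pair are uncertain. As a sum, the complex I genes of mitochondrial DNA stood at -0.066 (SD 0.060), higher in 1 of 4 libraries. The heavy-strand genes mt-Cytb (-0.00) and mt-Atp6 (0.04) and the light-strand gene mt-Nd6 (0.13) did not pass the test.

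In conventional CD8 against CD4 cells, no mitochondrially encoded member was higher and 4 were lower, beside 18.1% of all genes lower. Of the 12 averaging 50 CPM or more, 3 (25%) were lower, against 18.4% of genes at that level. Without the CD226-knockout library 2 of the 13 passed, and without the library as a block also 2. mt-Cytb, the cytochrome b gene of complex III, stood at 3199.7, 3228, 3267 and 3344 CPM in CD8 and 3628, 3612, 3671 and 3857 CPM in CD4 cells, without overlap, with a log2 fold of -0.15 (SE 0.031, adjusted p = 0.001). mt-Atp6, the membrane subunit a of ATP synthase, stood at 8492, 8706, 8499.6 and 9172 against 9550.4, 9513, 9489 and 10254 CPM, again without overlap, with a log2 fold of -0.13 (SE 0.028, adjusted p = 0.0022). mt-Nd6 (-0.23) did not pass without the CD226-knockout library (-0.17). mt-Nd4l (-0.10) did not pass without the CD226-knockout (-0.10), TIGIT-knockout (-0.09) or double-knockout library (-0.09). In Treg-origin against CD8 cells 6 members were higher and 4 lower, with 25.1% and 28.8% of all genes so called, led by mt-Atp6 (0.17), mt-Co3 (0.15) and mt-Cytb (0.15) among the higher and mt-Nd5 (-0.22) and mt-Nd3 (-0.21) among the lower. At 50 CPM or more, 5 of 12 (41.7%) were higher and 4 (33.3%) lower, against 26.6% and 52.9% of genes. With antibody limits of -1.5 and 3 none of the 13 was higher and 6 were lower, and mt-Cytb stood at -0.013. mt-Nd6 had the largest fold of the higher ones, 0.36 (SE 0.13), from 152 UMIs in Treg-origin cells, and did not pass without the CD226-knockout (0.31), the TIGIT-knockout (0.35) or the double-knockout library (0.33).

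**Figure D3:**
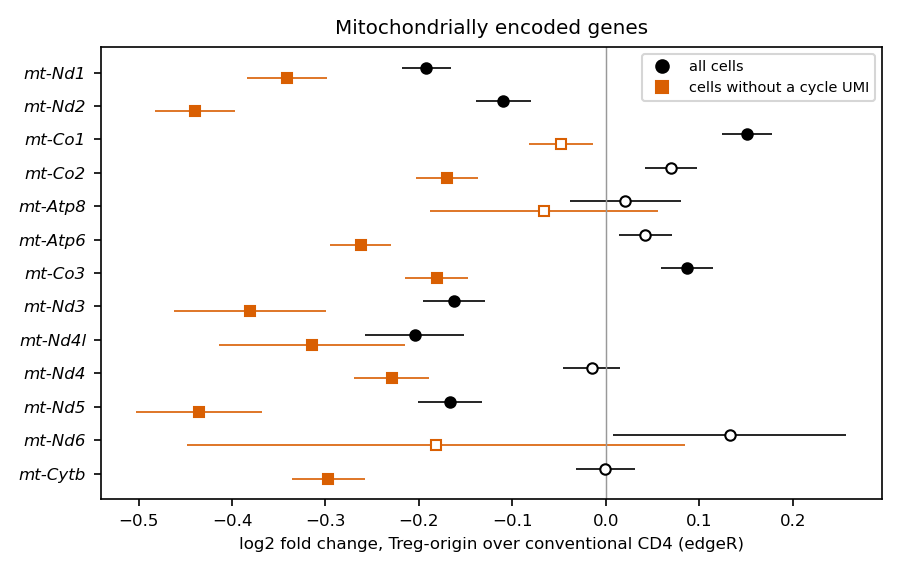
Log2 fold of the 13 mitochondrially encoded members in gene order, for Treg-origin over conventional CD4 cells. Circles show all cells and squares cells without a cycle UMI. Bars are the standard error, and filled points have an adjusted p of at most 0.05. In all cells mt-Co1 (0.15) and mt-Co3 (0.09) are above 0, and mt-Nd1, mt-Nd2, mt-Nd3, mt-Nd4l and mt-Nd5 lie between -0.20 and -0.11.

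The classes also differed in cell cycle transcripts. At least 1 UMI of 7 cycle genes (Mki67, Top2a, Cdk1, Ccna2, Ccnb1, Rrm2 and Tyms) was found in 56.6% to 61.9% of Treg-origin, 82.0% to 84.7% of CD4 and 92.2% to 94.8% of CD8 cells, at the depths given above. In cells without such a UMI the order of the mitochondrially encoded share turned. It was 4.53, 4.04, 4.03 and 4.33% in Treg-origin cells, 4.84, 4.64, 4.74 and 4.88% in CD4 cells and 4.64, 4.51, 4.44 and 4.78% in CD8 cells. Every Treg-origin value lay below every CD4 value, and the log2 ratio was -0.176 (SD 0.059), against 0.088 in all cells. The nuclear ratio kept its sign, at -0.108 (SD 0.016) for Treg-origin and 0.101 (SD 0.020) for CD8 over CD4 cells. The part of the cell cycle in the differences between classes was not tested.

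Depth differed between these cells too, so each cell was also thinned to 2000 UMIs before the cycle genes were read. In thinned cells the mitochondrially encoded share of CD4 cells was 4.55 to 4.73% without and 3.82 to 3.92% with a cycle UMI, and in CD8 cells it was 4.27 to 4.53% and 3.67 to 3.79%. In Treg-origin cells it was 4.35, 3.97, 4.10 and 4.23% without and 4.23, 3.83, 4.08 and 3.94% with a cycle UMI. In all 3 classes the share was lower with a cycle UMI in 4 of 4 libraries, by a mean log2 ratio of -0.052 (SD 0.041) in Treg-origin, -0.266 (SD 0.020) in CD4 and -0.241 (SD 0.027) in CD8 cells. The Treg-origin over CD4 log2 ratio was -0.161 (SD 0.045), higher in 0 of 4 libraries, without a cycle UMI, and 0.053 (SD 0.071), higher in 3 of 4, with one.

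**Figure D4:**
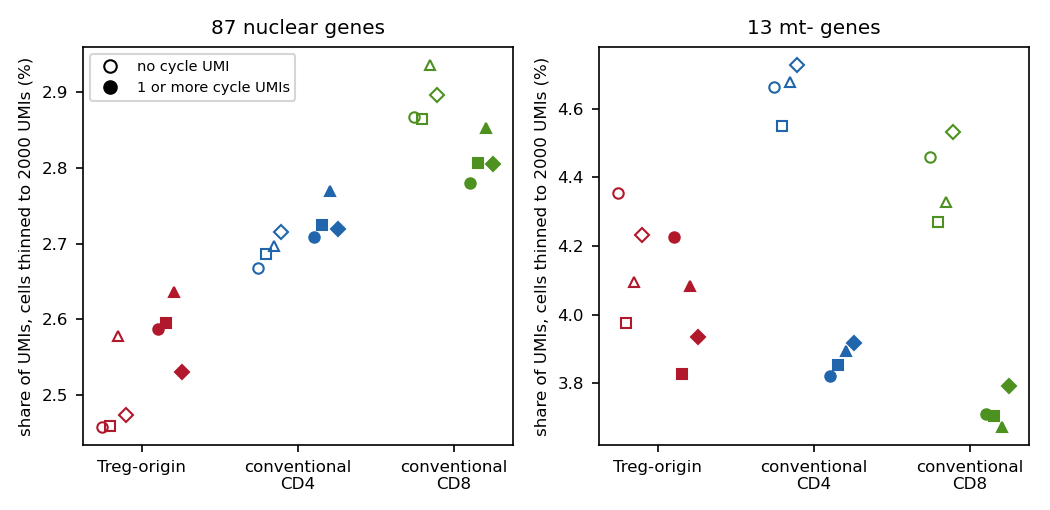
Share of UMIs (percent) of the nuclear and the mitochondrially encoded members in cells thinned to 2000 UMIs, per class and library, for cells without (open) and with (filled) a cycle UMI. In conventional CD4 cells the mitochondrially encoded share is 4.55 to 4.73% without and 3.82 to 3.92% with a cycle UMI, and in Treg-origin cells it is 3.97 to 4.35% without and 3.83 to 4.23% with one, lower with a cycle UMI in each library.

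The fit on cells without a cycle UMI tested 83 nuclear members. In Treg-origin against CD4 cells 32 were lower and 0 higher, 31 of them among the 53 lower calls in all cells, beside 12.1% lower and 12.7% higher of 7049 genes tested. Of the 10 members higher in all cells 9 were tested there and 0 passed, among them Ndufa6, Cox7a2l and Uqcrh, and Cox6b2 was not tested. There, 12 of 15 tested ATP synthase members and 0 of 7 complex I core subunits were lower. Of the mitochondrially encoded members 10 of 13 were lower and 0 higher, with mt-Co3 at -0.18 and mt-Co1, which did not pass, at -0.05. In CD8 against CD4 cells 25 nuclear members were higher and 1 lower, beside 8.11% and 7.76% of genes, 18 of the 25 being among the 45 higher calls in all cells. None of the 13 mitochondrially encoded members passed there. In Treg-origin against CD8 cells 56 nuclear and 9 mitochondrially encoded members were lower and none higher, beside 14.7% lower and 14.8% higher.

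Between Treg genotypes there is 1 library each and no test. CD226 loss is read as CD226-knockout over wild-type and as double-knockout over TIGIT-knockout library, and TIGIT loss as TIGIT-knockout over wild-type and as double-knockout over CD226-knockout library. In Treg-origin cells the nuclear sum had log2 ratios of 0.021 and -0.020 for CD226 loss and 0.037 and -0.004 for TIGIT loss, and the mitochondrially encoded sum -0.102 and 0.027 for CD226 loss and -0.082 and 0.047 for TIGIT loss. The signs were opposite in the 2 pairs of each. In conventional cells, wild type in every library, the 8 mitochondrially encoded ratios lay between -0.003 and 0.074. The wild-type library had the highest mitochondrially encoded share of Treg-origin cells, 4.23%, beside 1795 CPM of neutrophil markers. Without barcodes that held 3 or more other-lineage UMIs, these markers stood at 2.39 CPM and the share at 4.24%, and the TIGIT-knockout library, with 1729 CPM of the markers, had a share of 3.99%.

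**Figure D5:**
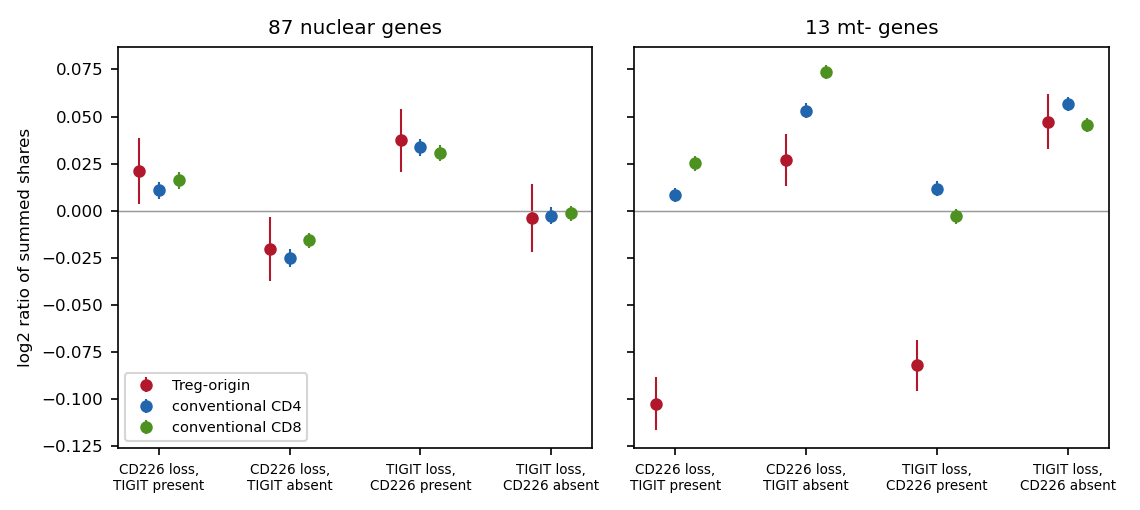
Log2 ratio of the summed nuclear and mitochondrially encoded members between libraries for each of the 4 genotype pairs, in Treg-origin, conventional CD4 and conventional CD8 cells; bars are 95% counting intervals. Treg-origin ratios of the mitochondrially encoded sum lie between -0.102 and 0.047, and those of the nuclear sum between -0.020 and 0.037.

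Few members had ratios more than 25% above 1, or below the inverse of that, between genotypes in Treg-origin cells, counted over the 77 nuclear and 12 mitochondrially encoded members of at least 50 CPM. For CD226 loss with TIGIT present 2 did, Ndufa10 and Ndufa5, both lower, beside 11.1% of genes at that level. With TIGIT absent Sdhd was past it upward and Sdha downward (11.4% of genes). TIGIT loss with CD226 present gave only Sdhd, lower (7.5% of genes), and with CD226 absent Ndufa5 and Sdhd, both higher (11.3% of genes). No mitochondrially encoded member passed, and no member passed in conventional CD4 cells (1.15, 2.95, 0.9 and 0.72% of genes in the same 4 contrasts) or CD8 cells (2.18, 2.69, 1.2 and 1.16%). The ratio of Ndufa5 for TIGIT loss was 0.997 with CD226 present and 1.38 with CD226 absent. By the mean of the 2 pairs, Ndufb6 was the lowest for CD226 loss, with ratios of 0.856 and 0.874, whose counting intervals both reach past 1 (0.712 to 1.03 and 0.740 to 1.03), against 1.06 and 1.07 in CD4 cells. The next lowest were Ndufaf3 at 0.883 and 0.846, Uqcrc1 at 0.885 and 0.875, Sdha at 1.02 and 0.761 and mt-Nd5 at 0.846 and 0.921. The highest for CD226 loss were Ndufa1 at 1.19 and 1.07, Cox7a2l at 1.21 and 1.03, Ndufa6 at 1.247 and 0.991, Atp5g3 at 1.05 and 1.17 and Uqcrfs1 at 1.09 and 1.08. CD4 cells had 1.01 and 1.07, 1.11 and 1.12, 1.12 and 0.905, 0.936 and 1.03, and 0.998 and 1.05 for these. In Treg-origin cells each of these 9 genes has a counting interval that includes 1 in at least 1 of the 2 pairs. For TIGIT loss the lowest were mt-Nd4l at 0.851 and 0.904, Ndufv1 at 0.887 and 0.911, Ndufb4 at 0.992 and 0.820 and Atp5d at 0.890 and 0.928, and besides Ndufa5 the highest included Ndufb6 at 1.14 and 1.16, Ndufaf8 at 1.20 and 1.04 and mt-Nd3 at 1.09 and 1.12, all with such an interval as well. The low genes had 1.02 and 1.03, 1.03 and 0.978, 1.03 and 1.09, and 0.947 and 0.982 in CD4 cells. The high ones had 1.03 and 1.04, 1.03 and 1.11, and 1.17 and 1.13 there. With 1 library per genotype, gene loss and library differences cannot be told apart. mt-Co1 was lower for TIGIT loss, at 0.919 (95% counting interval 0.896 to 0.943) and 0.925, and stood at 0.979 and 0.952 in CD4 cells. Ndufa4 was higher for TIGIT loss, at 1.13 and 1.11, beside 1.08 and 1.07 in CD4 and 1.07 and 1.07 in CD8 cells, which carried no TIGIT deletion.

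Lists of genes that feed, build or load the chain are given beside 23.7% of all genes lower and 20.2% higher in Treg-origin than in CD4 cells (48.7% and 23.5% at 50 CPM or more). For CD8 against CD4 cells the shares of all genes were 21.1% higher and 18.1% lower (33.6% and 18.4% at 50 CPM or more). Of 78 mitochondrial ribosome genes, 53 were lower and 2 higher against CD4 cells, among them Mrpl12 at -0.40, and 39 were higher and 2 lower in CD8 against CD4 cells. Of 13 tricarboxylic acid cycle genes, which supply NADH and succinate, 9 were lower and 0 higher, with Suclg2 at -0.74 and Idh3a at -0.42. In CD8 cells 4 of these were higher and 1 lower. Of 16 genes that copy or express mitochondrial DNA, 6 were lower and 0 higher, one of them Tfam, the packaging factor of mitochondrial DNA (-0.36). Of 8 tested regulators of mitochondrial biogenesis, Pprc1 (-0.93), Nrf1 (-0.37) and Gabpa (-0.36) were lower and Yy1 (0.13) was higher. Gabpa lost its call without the double-knockout library (-0.23) and Yy1 without the TIGIT-knockout library (0.10). Of 35 tested electron carriers and assembly genes outside the name rule 9 were lower and 6 higher, shares near those of all genes. Cycs, cytochrome c, fell (-0.26), the coenzyme Q synthesis gene Coq7 fell (-0.81), and Surf1, a complex IV assembly gene, rose (0.33).

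Of 7 uncoupling, carrier and pore genes, 6 were lower in Treg-origin cells, including the ADP/ATP carrier Slc25a4 (-0.38) and the outer membrane channel Vdac1 (-0.53). The exception was Ucp2, an inner membrane carrier of the uncoupling protein family. It stood at 632, 581, 631 and 550.0 CPM in Treg-origin, 375, 357, 347 and 339 CPM in CD4 and 262, 260.3, 254 and 227 CPM in CD8 cells. The 3 ranges did not overlap, and the log2 fold was 0.71 (SE 0.03, adjusted p = 2.7e-11) for Treg-origin over CD4 cells and -0.47 (SE 0.027, adjusted p = 1.4e-09) for CD8 over CD4 cells. In cells without a cycle UMI the list of 7 again had 6 lower and 1 higher against CD4 cells. The mitochondrial ribosome list had 19 lower and 0 higher of 75 there, the tricarboxylic acid cycle list 1 and 0 of 13, the list of genes that copy or express mitochondrial DNA 1 and 0 of 10, the biogenesis regulators 0 lower and 1 higher of 6, and the carriers and assembly genes 4 and 1 of 28, beside 12.1% lower and 12.7% higher of all genes there.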

How the data were processed

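The deposited values are UMI counts per gene and cell barcode with counts of the 2 antibodies, made with Cell Ranger 3.1.0 and the mm10 build, per the submitters' processing notes. Barcodes with 500 or more genes and no more than 10% of UMIs from mitochondrial genes were kept, leaving 7654, 9045, 10383 and 9058 of 8597, 9835, 11126 and 9863. The limit of 10% acts on the mitochondrially encoded members directly. Antibody ratios used a pseudocount of 1. Doublets were not removed, and cells between the antibody limits or with equal Cd4 and Cd8 UMIs were not used. The members and gene lists were chosen with earlier results of these data known.

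Counts were summed per class and library and fitted for all genes in R 4.3.3 with edgeR 4.0.16 (quasi-likelihood F-test after filterByExpr and TMM, the library as a block, 12 sums in 1 fit, 11814 genes). P-values were adjusted by Benjamini-Hochberg over all genes tested and called at 0.05. The 4 libraries are replicates for class contrasts only, and apart from the lane no label says what they share, so p-values measure the spread between these libraries. The Treg-origin sums are each of a different genotype and the conventional sums all wild type. Contrasts with Treg-origin cells therefore average over the 4 genotypes, and genotype differences enter the spread of the Treg-origin sums. The standard error is the absolute log2 fold divided by the square root of F. In counts simulated for Treg-origin over CD4 cells (11700 genes, 50 changed per fold size), 26% of genes changed 1.25-fold, 56% at 1.5-fold, 76% at 2-fold and 78% at 3-fold were found, with 4 of 122 calls false. The changed genes were drawn from tested genes of any abundance, and the counts followed the fitted model without a library effect. These shares therefore do not describe the members in particular, nor errors that the model leaves out. Genotype ratios used a pseudocount of 1 CPM for single genes, and intervals are 95% and cover counting error only. DESeq2 1.42.0, other scalings, filters and cell limits, and leaving out each library were tried as alternatives.

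Members named are all mt- genes, the 8 with the largest called fold in each direction per contrast, the member with the most UMIs per complex, the paralog, isoform and complex II sets, and the 5 highest and 5 lowest per genotype loss. Others named in groups were chosen after their values were seen. Gene positions are those of GENCODE vM21 (GRCm38).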

Additional observations from a re-analysis of the deposited data

Results flagged for a closer look

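In 9 cases the log2 ratio of a summed share had opposite signs in the 2 library pairs that read the same gene loss. The first value of each is the loss with the other receptor present and the second with it absent. For CD226 loss in Treg-origin cells the nuclear sum had 0.021 and -0.020 and the mitochondrially encoded sum -0.102 and 0.027. For TIGIT loss in Treg-origin cells the nuclear sum had 0.037 and -0.00383 and the mitochondrially encoded sum -0.082 and 0.047. In conventional CD4 cells, wild type throughout, the nuclear sum had 0.011 and -0.025 for CD226 loss and 0.034 and -0.00251 for TIGIT loss. In conventional CD8 cells the nuclear sum had 0.016 and -0.016 for CD226 loss and 0.031 and -0.00132 for TIGIT loss, and the mitochondrially encoded sum -0.00299 and 0.045 for TIGIT loss. With 1 library per genotype these differences between pairs were not tested.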

How the results depend on the processing

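The signs of the nuclear ratios between classes held in every alternative run, and those of the mitochondrially encoded ratios of Treg-origin cells did not. Alternatives are a limit of 5% mitochondrial UMIs, at least 1000 genes per cell, antibody limits of -1.5 and 3, strict CD4 and CD8 calls (at least 2 UMIs of one and 0 of the other), thinning to 2000 UMIs, and cells without a cycle UMI. The nuclear log2 ratio of Treg-origin over CD4 cells, -0.069, was -0.060, -0.062, -0.074, -0.059, -0.100 and -0.108 under these 6. That of CD8 over CD4 cells, 0.040, was 0.030, 0.064, 0.054 and 0.101 with 5%, strict calls, thinning and no cycle UMI, and that of Treg-origin over CD8 cells, -0.108, was -0.090, -0.101, -0.123, -0.154, -0.209 and -0.101 with 5%, 1000 genes, strict calls, thinning, no cycle UMI and scaling without mt- genes.

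For the mitochondrially encoded sum, Treg-origin over CD4 cells turned from 0.088 to -0.019, -0.00266 and -0.176 with the antibody limits, thinning and no cycle UMI. Treg-origin over CD8 cells, 0.185, was 0.090, 0.048 and 0.101 with 5%, the antibody limits and thinning, and turned to -0.120 with no cycle UMI. CD8 over CD4 cells, -0.097, was -0.053, -0.067, -0.072 and -0.056 with 5%, the antibody limits, strict calls and no cycle UMI.

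Counts moved as follows. The 63 nuclear calls of Treg-origin over CD4 cells became 41 after thinning and 32 with no cycle UMI. The 47 of CD8 over CD4 cells became 26 with 5%, 26 with no cycle UMI and 21 without the replicate block (the library as a block), and 24 to 41 when 1 library was left out. The 4 mitochondrially encoded calls there became 2 with strict calls, 0 with no cycle UMI, 8 in a fit on 2 classes, 2 without the replicate block, and 2 to 6 when 1 library was left out. The 10 of Treg-origin over CD8 cells, 6 higher and 4 lower, became 6 with the antibody limits, 0 higher and 6 lower. Dropping the block moved no other count of calls by more than 1.5 times.

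Single members reversed mostly with no cycle UMI. Over CD4 cells, Treg-origin values there were -0.011 for Ndufa13, -0.039 for Ndufa3, -0.262 for mt-Atp6, -0.048 for mt-Co1, -0.170 for mt-Co2 and -0.181 for mt-Co3, which was -0.00687 with the antibody limits. Over CD8 cells they were -0.202 for Ndufa13, -0.116 for Ndufv3, -0.226 for mt-Atp6, -0.054 for mt-Co1, -0.188 for mt-Co2, -0.154 for mt-Co3, -0.267 for mt-Cytb and -0.219 for mt-Nd4. With the antibody limits mt-Cytb was -0.013 and mt-Nd4 -0.113, and with 5% mt-Nd4 was -0.087. Without TMM Cox4i1 was 0.00771 and mt-Nd2 0.000904 over CD8 cells. Sdhc in CD8 over CD4 cells was -0.013 with no cycle UMI. The cause of these changes was not tested.

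Genotype ratios, as the mean of 2 pairs with 1 library each, moved by more than their counting interval in several settings. For CD226 loss the nuclear mean in Treg-origin cells, 0.0004, was -0.012, -0.031 and -0.023 with the antibody limits, thinning and no cycle UMI, and in CD8 cells, 0.0002, it was -0.00452 and -0.031 with thinning and no cycle UMI. The mitochondrially encoded mean for CD226 loss in Treg-origin cells, -0.038, was -0.023 and -0.066 with the antibody limits and thinning. In CD4 cells, 0.031, it was 0.026, 0.024, 0.038, 0.017 and 0.027 with no mitochondrial limit, 5%, the antibody limits, thinning and no other-lineage barcodes, and turned to -0.00861 with no cycle UMI. In CD8 cells, 0.049, it was 0.056, 0.026, 0.027, 0.033 and 0.046 with 5%, the antibody limits, thinning, no cycle UMI and no other-lineage barcodes. For TIGIT loss the mitochondrially encoded mean in Treg-origin cells, -0.017, was -0.00248, -0.063, -0.00207 and -0.035 with no mitochondrial limit, the antibody limits, thinning and no cycle UMI, and turned to 0.027 with 5%. In CD4 cells, 0.034, it was 0.040, 0.039, 0.021, 0.020 and 0.041 with 5%, the antibody limits, thinning, no cycle UMI and no other-lineage barcodes, and in CD8 cells, 0.021, it was 0.016, 0.038, 0.00875, 0.00693 and 0.00989 with no mitochondrial limit, 5%, the antibody limits, thinning and no cycle UMI. The nuclear mean for TIGIT loss in CD4 cells, 0.016, was 0.020 with the antibody limits, and in CD8 cells, 0.015, it was 0.019, 0.019 and 0.021 with the antibody limits, thinning and no cycle UMI.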
